A study of Homo sapiens with 6 samples.

Results

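The 10 genes MMP1, MMP2, MMP9, MMP13, MMP14, TIMP1, TIMP2, TIMP3, PLAU and PLAUR were followed in MDA-MB-231 cells, out of 63241 genes with a count column. They were chosen by name as matrix metalloproteinases (MMPs), tissue inhibitors of metalloproteinases (TIMPs) and the urokinase system, and each symbol matched 1 Ensembl identifier. MDA-MB-231 is a line of human tumor cells of the triple-negative type of breast cancer, with the genotype given as wild type. The study screened for small molecules that alter the tumor immune microenvironment and selected NCD (nitidine chloride), a plant alkaloid, for which it asked how the compound acts on the tumor cells themselves. Cells received 5 μM NCD, or 0.1% DMSO as the vehicle, for 24 hours, and RNA from 3 libraries per group was sequenced. The labels give both groups the same cell line and culture medium and name no other agent.

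MMPs are zinc enzymes that cut collagens, other matrix proteins and cell surface proteins, and they are made as inactive precursors. MMP14 stays on the cell membrane, where it cuts collagen and, together with TIMP2, activates the MMP2 precursor, while TIMPs bind the active site of MMPs and block them. PLAU encodes urokinase, which cuts plasminogen to plasmin, and PLAUR encodes the receptor that holds urokinase at the cell surface. In breast cancer, urokinase is well known as a marker of invasive disease, and MDA-MB-231 is widely used as an invasive line.

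With NCD, PLAUR, TIMP3 and MMP14 fell, and none of the 10 genes rose past the fold limit. PLAUR was lowest relative to DMSO, at 43.9 against 126.4 CPM (read counts scaled to a common library size), followed by TIMP3 at 37.2 against 92.0 CPM and MMP14 at 194.8 against 404.8 CPM. TIMP2 and PLAU were also lower, by less than 2-fold, and TIMP1 was 1.21 times the DMSO level. MMP1 and MMP9 were few in reads and did not pass the test, and MMP2 and MMP13 were almost unread in these cells. Differential expression was called by edgeR's quasi-likelihood test across all 15295 genes with enough reads, and a gene was called where its p, adjusted by Benjamini-Hochberg, was below 0.05 and its log2 fold change exceeded 1 in size, which is a change of more than 2-fold.

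Of the 10 members, 8 had enough reads to be tested, 3 were called lower and 0 were called higher. Among all tested genes 31.0% were called, 13.5% higher and 17.5% lower. A further 3 members passed the adjusted p within the fold limit, of which TIMP2 and PLAU were lower and TIMP1 was higher, so 6 of 8 passed at any fold where 69.3% of all genes did. At any fold 34.1% of all genes were lower and 35.3% were higher. In 6 of the 8 tested members all 3 NCD libraries lay below all 3 DMSO libraries, which held for 35.3% of all tested genes, and in 0 they all lay above, which held for 37.3%. One of the 6 is MMP9, which had only 9 to 20 counts per library and did not pass the test. The groups were apart in either direction in 72.6% of all tested genes. The median log2 fold change was -0.85 over the 8 tested members and 0.04 over all tested genes. The members were picked with results of these libraries known, so these counts describe the genes and are no test of the group.

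**Figure D1:**
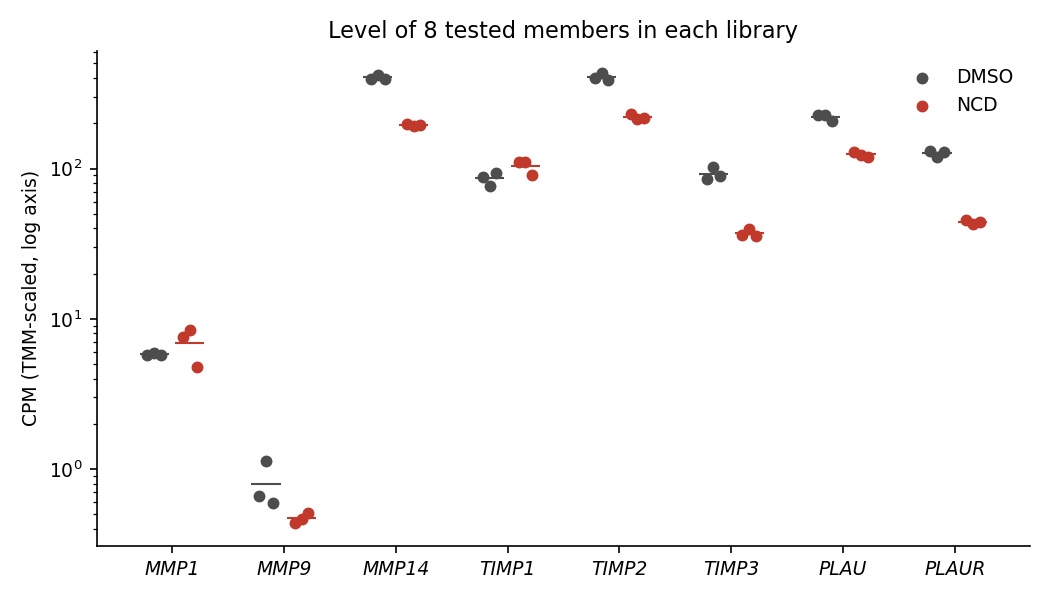
Level of the 8 tested members in each library, as CPM on TMM-scaled library sizes (log axis), with DMSO in grey, NCD in red and a line at each group mean. The NCD points of MMP14, TIMP2, TIMP3, PLAU, PLAUR and MMP9 all lie below the DMSO points, and those of MMP1 and TIMP1 overlap them.

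The libraries held from 18232169 to 21629653 counts with NCD and from 18223594 to 19410833 with DMSO. All 6 markers of the line that were examined (VIM, CD44, AXL, CAV1, EGFR and S100A4) were present at 1 CPM or more, with a summed level of 5657 to 5909 CPM with DMSO and 3611 to 3897 CPM with NCD. Fibroblast markers, which matter here because fibroblasts make many of these proteases, summed to 4.13 to 5.32 CPM with DMSO and 18.6 to 20.0 CPM with NCD. That sum came mostly from COL1A1 and PDGFRB, while COL1A2 had 0 counts in all 6 libraries. Macrophage markers summed to at most 2.23 CPM in any library, with ITGAM at 0, and endothelial markers to at most 16.4 CPM. Hormone receptor, HER2 and epithelial markers summed to 38.15 to 41.4 CPM with DMSO and 62.7 to 66.7 CPM with NCD. ERBB2 made up most of this, at 37.2 and 61.0 CPM (log2 fold change 0.71, within the fold limit). EPCAM was at 2.71 and 4.01 CPM, and ESR1, PGR and CDH1 were under 1 CPM in all 6 libraries. The part of these differences in the values of the members was not tested. In a bulk culture, fewer cells of a kind and less RNA per cell cannot be told apart. For NCD replicates 2 and 3 the free-text note carries another number for the line, whereas the cell line entry is MDA-MB-231, and leaving out either library changed none of the 3 member calls.

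Upstream sequences are shown for the 5 members with a RefSeq promoter window (GRCh38.p14), because PLAUR, TIMP3, MMP14 and PLAU were lower with NCD and TIMP1 was not. Each window runs from 250 bases before to 50 bases after the gene start, and the stretch printed, 5′ to 3′ on the strand of the gene, is the part outside the exons of GENCODE 29. Capitals mark a GC box (GGGCGG or CCGCCC) or an AP-1 site (TGANTCA, which reads as the same pattern on both strands). For PLAUR all 250 upstream bases lie in the first exon of a longer transcript, so only 30 bases around its AP-1 match are shown, at chr19:43670337-43670366 on the minus strand. The MMP14 stretch is chr14:22836335-22836556, the TIMP3 stretch chr22:32801455-32801700 and the TIMP1 stretch chrX:47582186-47582312, all on the plus strand. The PLAU stretch, chr10:73910882-73911103 on the plus strand, belongs to the second of 2 windows, since PLAU has 2 starts in that table. Both PLAU windows lie inside the GENCODE span of the gene, which begins at 73909177. The stretch is thus upstream of a RefSeq start and not of the whole annotated gene.
PLAUR: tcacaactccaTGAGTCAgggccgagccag
MMP14: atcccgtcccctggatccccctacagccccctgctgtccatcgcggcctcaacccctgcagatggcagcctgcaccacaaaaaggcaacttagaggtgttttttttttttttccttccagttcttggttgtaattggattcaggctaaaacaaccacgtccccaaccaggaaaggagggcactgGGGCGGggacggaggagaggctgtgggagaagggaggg
TIMP3: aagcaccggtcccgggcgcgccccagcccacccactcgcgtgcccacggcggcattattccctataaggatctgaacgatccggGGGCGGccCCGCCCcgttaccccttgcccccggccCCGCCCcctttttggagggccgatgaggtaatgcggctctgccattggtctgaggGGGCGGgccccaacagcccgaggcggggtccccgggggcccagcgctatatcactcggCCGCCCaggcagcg
TIMP1: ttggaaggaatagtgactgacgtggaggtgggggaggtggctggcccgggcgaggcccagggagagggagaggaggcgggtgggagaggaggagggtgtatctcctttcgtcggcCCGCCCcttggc
PLAU: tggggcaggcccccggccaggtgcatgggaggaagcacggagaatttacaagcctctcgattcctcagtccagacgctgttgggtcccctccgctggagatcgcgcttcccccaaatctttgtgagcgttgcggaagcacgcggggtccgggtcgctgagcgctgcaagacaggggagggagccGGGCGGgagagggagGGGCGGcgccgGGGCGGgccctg
The match to the AP-1 letters in PLAUR is TGAGTCA, and its first base lies 186 bases before the RefSeq start. It thus lies within the exon of the longer transcript and not upstream of the whole annotated gene. It was the only such match in the windows of these 5 members, while 7.71% of all 35116 promoter windows hold one. GC boxes were found in at least 1 window of 4 of the 5 members, and 45.0% of all windows hold one. The 2 figures differ in unit, since PLAU counts here through 1 of its 2 windows. The TIMP3 window held 5 of them, the printed PLAU window 3 and the other PLAU window 0, the TIMP1 window 2 (of which 1 lies in the printed stretch) and the MMP14 window 1, and they overlap no AP-1 match. The TIMP3 window held 72.7% G and C, beside a median of 58.7% over all windows, and MMP14 had 55.0%. The PLAU windows differed, at 70.0% for the printed one and 48.7% for the other. A TATA box (TATAAA or, on the other strand, TTTATA) was found in 0 of the 5, while 11.5% of all windows hold one. Matches of this kind describe the letters of a window and not what binds there.

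PLAUR, the urokinase receptor, lies on chromosome 19 (43646095 to 43670547, minus strand). Its levels were 130.5, 120.2 and 128.4 CPM in the DMSO libraries and 45.4, 42.5 and 43.8 CPM in the NCD libraries. Every NCD library was thus far below every DMSO library, and the spread within either group was small. The fall was 2.88-fold between the means (126.4 ± 5.41 against 43.9 ± 1.46 CPM, SD, n = 3), or -1.52 on the log2 scale (SE 0.06, adjusted p = 9.43e-08). It kept its call in all 13 alternative analyses, with log2 fold changes from -1.57 to -1.33.

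PLAU, urokinase itself, lies on chromosome 10 (73909177 to 73917497, plus strand). Its levels were 226.2, 228.7 and 206.1 CPM with DMSO and 129.6, 123.4 and 119.2 CPM with NCD, without overlap. The difference was 1.78-fold (220.3 ± 12.4 against 124.1 ± 5.22 CPM, SD, n = 3), with a log2 fold change of -0.83 (95% interval -0.97 to -0.68, adjusted p = 3.92e-06), and so passed the test without reaching the fold limit. PLAU shares 916 exon bases with C10orf55 on the opposite strand, and since the strandedness of the counting is not given in the sources used here, reads of the pair cannot be told apart. C10orf55 was assigned at most 24.6 counts in any library, beside 2386 to 4043 for PLAU.

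Of the partners of urokinase, SERPINE2, which encodes protease nexin-1, an inhibitor of urokinase and thrombin, rose from 22.9, 29.4 and 26.1 CPM in the DMSO libraries to 64.7, 62.2 and 60.0 CPM in the NCD libraries. All NCD libraries lay above all DMSO libraries, opposite to PLAU and PLAUR. Its log2 fold change was 1.25 (SE 0.10, adjusted p = 3.77e-06). SERPINB2, which encodes the inhibitor PAI-2, was under 1 CPM in all 6 libraries and gave a log2 fold change of -0.25 (95% interval -0.93 to 0.43, adjusted p = 0.472).

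PLAT, the tissue-type plasminogen activator, had 50.4, 53.2 and 48.2 CPM with DMSO and 55.1, 53.5 and 49.4 CPM with NCD, and the groups overlapped. Its log2 fold change was 0.06 (95% interval -0.11 to 0.23, adjusted p = 0.498). Scaled by library totals it was 0.26 with an adjusted p of 0.0113, the only one of 13 alternatives below 0.05 (range 0.0113 to 0.995). PLAU accordingly made up 83.5% ± 0.37 of the summed PLAU and PLAT level per kilobase with DMSO and 73.3% ± 0.44 with NCD (SD, n = 3). LRP1, the receptor that takes up complexes of urokinase with inhibitors, had a log2 fold change of -0.16 (95% interval -0.48 to 0.17, adjusted p = 0.346). LRP1 shares 59 exon bases with STAT6 on the opposite strand, which had up to 2016 counts. PLG, which encodes plasminogen, is mainly a liver gene and had from 0 to 8 counts per library, too few to be tested.

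MMP14, the membrane-bound MMP, lies on chromosome 14 (22836557 to 22849027, plus strand). It had 396.4, 422.0 and 396.0 CPM with DMSO and 197.4, 191.6 and 195.5 CPM with NCD. The 2 groups were narrow and well apart, at 404.8 ± 14.9 and 194.8 ± 2.93 CPM (SD, n = 3). The fall was 2.08-fold, a log2 fold change of -1.06 (SE 0.06, 95% interval -1.18 to -0.93, adjusted p = 3.61e-07), just past the fold limit. With libraries scaled by their totals, which shifted the median of all genes by 0.20 on the log2 scale, it was -0.86 and MMP14 was no longer called. MMP14 made up 92.9% of the summed level of the MMP genes per kilobase with DMSO and 74.9% with NCD.

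MMP15, another membrane-type MMP with a similar domain structure, rose from 4.89 ± 0.63 to 28.9 ± 3.47 CPM (SD, n = 3), a log2 fold change of 2.56 (SE 0.14, adjusted p = 4.01e-07). It made up 1.04% of the summed membrane-type MMP level per kilobase with DMSO and 11.4% with NCD. MMP16 fell from 4.32 ± 0.72 to 0.30 ± 0.19 CPM, a log2 fold change of -3.83 (SE 0.35, adjusted p = 1.13e-05). The summed level of the 6 membrane-type genes went from 110.4 ± 4.19 to 59.5 ± 1.20 CPM per kb (SD, n = 3), most of it MMP14 in both groups.

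MMP1, the interstitial collagenase, lies on chromosome 11 (102789920 to 102798160, minus strand) and was read 96, 104 and 105 times with DMSO and 174, 162 and 102 times with NCD. NCD replicate 3 lay below the DMSO libraries at 4.76 CPM, while NCD replicates 1 and 2 lay above them at 7.60 and 8.38 CPM. The log2 fold change was 0.25 (95% interval -0.21 to 0.71, adjusted p = 0.299). Without NCD replicate 3 it was 0.44 with an adjusted p of 0.0136, and that was the only one of 13 alternatives below 0.05 (range 0.0136 to 0.717). MMP9, a gelatinase on chromosome 20 (46008908 to 46016561, plus strand), was read 11, 20 and 10.8 times in the DMSO libraries and 10, 9 and 11 times in the NCD libraries. Its log2 fold change was -0.75 with a wide interval (-1.57 to 0.06, adjusted p = 0.0902), and none of 12 alternatives passed (adjusted p from 0.0679 to 0.359). SLC12A5-AS1, which overlaps 430 exon bases of MMP9 on the opposite strand, had up to 4.19 counts.

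MMP2, the gelatinase that MMP14 activates, lies on chromosome 16 (55389700 to 55506691, plus strand). It had 2 counts in each DMSO library and 0 in each NCD library. A count of 0 allows up to 3 counts, or 0.131 to 0.155 CPM in the NCD libraries, so the groups could not be told apart at this depth. MMP13, collagenase 3, on chromosome 11 (102942995 to 102955734, minus strand), had 1 count in DMSO replicate 2 and 0 in the other libraries. Neither gene entered the test. MMP2, the precursor on which MMP14 and TIMP2 act together, was thus hardly present as RNA under either condition.

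TIMP3, which is bound to the matrix and also inhibits some ADAM proteases, lies on chromosome 22 (32801701 to 32863043, plus strand). The gene sits inside an intron of SYN3 on the other strand. The levels of TIMP3 were 85.3, 101.9 and 88.8 CPM with DMSO and 36.4, 39.8 and 35.6 CPM with NCD. All NCD libraries were below all DMSO libraries. It fell 2.47-fold, a log2 fold change of -1.31 (SE 0.09, adjusted p = 1.49e-06), and was called in all 13 alternatives.

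TIMP2, on chromosome 17 (78852977 to 78925387, minus strand), had 397.4, 430.6 and 387.1 CPM with DMSO and 232.0, 214.7 and 216.7 CPM with NCD. The groups did not overlap, and the log2 fold change was -0.87 (SE 0.06, 95% interval -1.02 to -0.73, adjusted p = 2.85e-06), which did not reach the fold limit. TIMP1, on chromosome X (47582313 to 47586789, plus strand), inside an intron of SYN1 on the other strand, had 88.3, 77.0 and 93.9 CPM with DMSO and 110.4, 111.3 and 91.2 CPM with NCD. NCD replicate 3 lay below the highest DMSO library, so the groups overlapped. The log2 fold change of TIMP1 was 0.27 (95% interval 0.05 to 0.50, adjusted p = 0.0357), and the adjusted p was below 0.05 in 6 of 13 alternatives and ranged from 0.00175 to 0.16 over them. It was thus at the edge of the test and far within the fold limit.

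TIMP4 and RECK, which encode further MMP inhibitors, the second anchored in the cell membrane, were at low levels. TIMP4 went from 4.75 ± 0.75 to 6.29 ± 0.29 CPM, with a log2 fold change of 0.41 (adjusted p = 0.0343), and RECK from 9.64 ± 0.65 to 7.22 ± 0.34 CPM, with -0.42 (adjusted p = 0.00841). Both lay within the fold limit (SD, n = 3). The adjusted p was below 0.05 in 8 of 13 alternatives for TIMP4 (range 0.00423 to 0.151) and in 12 of 13 for RECK (0.00593 to 0.117, the highest with library totals). The summed level of the 4 TIMP genes was 230.6 ± 2.20 CPM per kb with DMSO and 189.4 ± 14.3 with NCD. TIMP1 made up 42.0% ± 3.85 of it with DMSO and 61.6% ± 2.29 with NCD, TIMP2 48.1% ± 3.08 and 32.1% ± 2.17, and TIMP3 8.67% ± 0.87 and 4.28% ± 0.27. TIMP2 held the largest share in all 3 DMSO libraries, in DMSO replicate 3 by only 45.5% against 45.2% for TIMP1, while TIMP1 held the largest in all 3 NCD libraries.

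**Figure D2:**
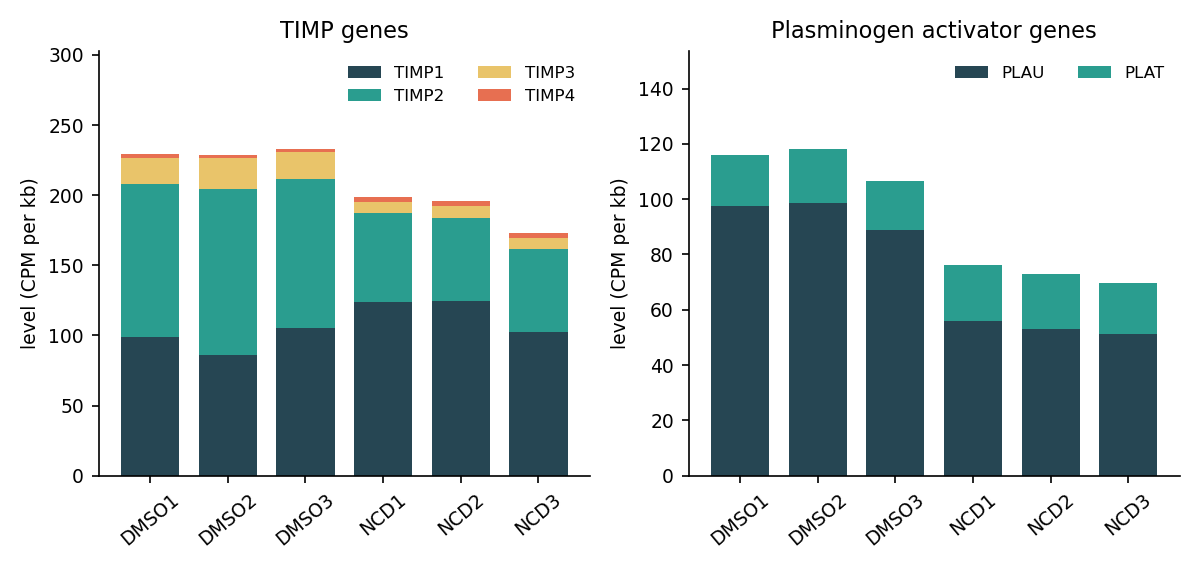
Stacked bars of the level per kilobase (CPM per kb, from 0) of 4 TIMP genes (left) and the plasminogen activator genes PLAU and PLAT (right) in each of the 6 libraries. TIMP1 takes 42.0% of the TIMP bars with DMSO and 61.6% with NCD, and PLAU takes 83.5% and 73.3% of the activator bars.

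Between genes, levels are comparable only per kilobase of transcript, and on that scale the order of the members differed between the groups. With DMSO, TIMP2 (110.9 CPM per kb) and MMP14 (108.5) led with overlapping ranges, followed by TIMP1 (96.9) and PLAU (94.9), which also overlapped, and then by PLAUR (81.6) and TIMP3 (20.0). With NCD, TIMP1 (116.9 CPM per kb) stood first, TIMP2 (60.6) second, and PLAU (53.5) and MMP14 (52.2) overlapped, followed by PLAUR (28.4) and TIMP3 (8.09). MMP1 was at 2.95 and 3.51 CPM per kb and MMP9 at 0.34 and 0.20, well apart from the rest in both groups. All other neighbours in these orders, apart from MMP2 and MMP13 at 0 with NCD, had ranges that did not overlap. These orders use the principal transcript as length. The longest transcript is longer for TIMP1 (1.095 against 0.892 kb), PLAU (2.658 against 2.321 kb) and PLAUR (1.61 against 1.548 kb). The places of these genes among close neighbours, and the size of the TIMP1 share above, depend on that choice.

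Ratios within a library do not depend on how the library is scaled. Per kilobase, PLAUR to PLAU was 0.862 ± 0.073 with DMSO and 0.531 ± 0.018 with NCD. With the longest transcript as length it was 0.950 ± 0.080 with DMSO, where DMSO replicate 3 reached 1.03, and 0.585 ± 0.020 with NCD. MMP14 to TIMP2 was close to parity in both, at 0.979 ± 0.021 and 0.863 ± 0.027. The 5 member MMPs summed over the 3 member TIMPs gave 0.491 ± 0.021 and 0.302 ± 0.020 (SD, n = 3 for each ratio). In none of the 3 ratios did the groups overlap, and no test was made on them because the genes were chosen with their results known. RNA ratios say nothing of how much protein was secreted or active.

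**Figure D3:**
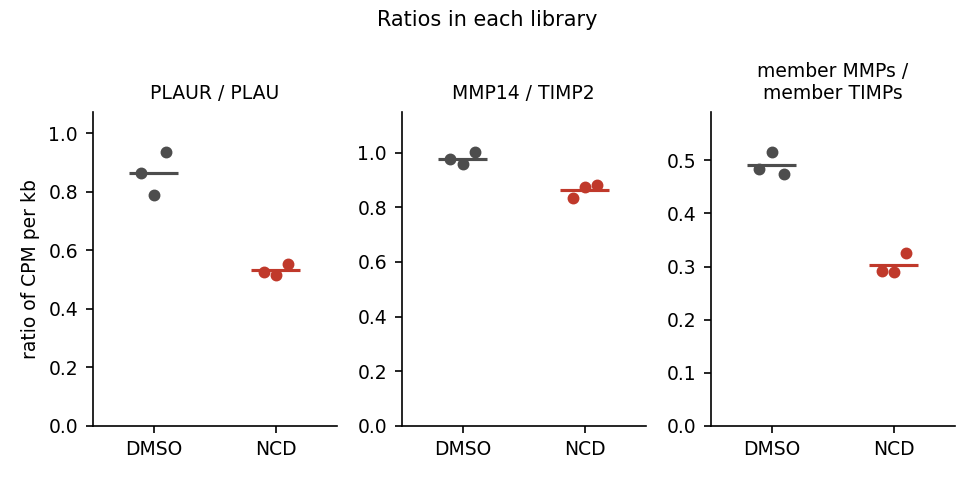
Ratio of levels per kilobase in each library for 2 gene pairs and 1 pair of sums, each axis starting at 0, with a line at the group mean. All 3 ratios are lower with NCD, PLAUR to PLAU at a mean of 0.531 against 0.862 with DMSO.

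**Figure D4:**
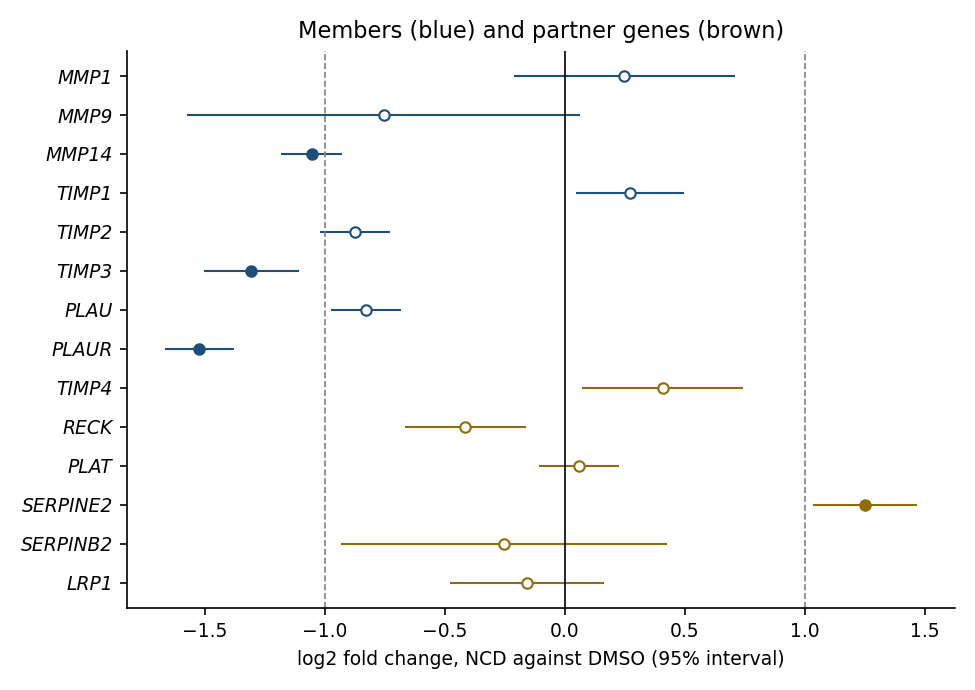
Log2 fold change with NCD (points) and its 95% interval (bars) for the 8 tested members (blue) and 6 partner genes (brown), with dashed lines at the fold limit and filled points for called genes. PLAUR, TIMP3 and MMP14 are the filled members, and SERPINE2 at 1.25 is the filled gene on the right.

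In these libraries the fold change went with the genomic span of genes. Among tested genes the median log2 fold change was 0.41 for spans of 8.0 to 13.2 kb and -2.09 above 153.1 kb. MMP14 and PLAU, at 12.5 and 8.3 kb, sit in the first of these ranges, where 3.27% of genes were called lower and 21.9% higher. PLAUR spans 24.5 kb, in the fifth of 10 equal groups by span, with a median of 0.32 and 3.95% of genes called lower. TIMP2 and TIMP3 span 72.4 and 61.3 kb, in a range (58.9 to 89.7 kb) with a median of -0.35 and 15.6% of genes called lower. SERPINE2 spans 64.2 kb. TIMP1 and MMP9, at 4.5 and 7.7 kb, sit in the range of 3.7 to 8.0 kb, with a median of 0.39. MMP1, at 8.2 kb, shares the range of MMP14 and PLAU. The medians of the groups that hold PLAUR, TIMP3 and MMP14 all lie above -1, so any gene called lower had to lie below them. The part of span in the values of the members was not tested.

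Among 18 other MMP genes, 6 could be tested, of which 3 were called higher and 1 lower, with a median log2 fold change of 0.82. MMP15 and MMP16 were described above. MMP19 rose from 3.15 ± 0.48 to 7.93 ± 0.96 CPM (log2 fold change 1.33), and MMP11, stromelysin 3, from 1.58 ± 0.11 to 4.12 ± 0.56 CPM (1.38). Per kilobase, MMP15, MMP19 and MMP11 made up 0.99%, 1.22% and 0.59% of the summed MMP level with DMSO and 9.72%, 5.10% and 2.58% with NCD. Of 13 further genes that inhibit, activate or dock MMPs, 12 were tested, 2 were called higher and 2 lower (median -0.07). TFPI2, a Kunitz inhibitor of plasmin and other proteases, rose from 25.8 ± 3.40 to 105.5 ± 7.50 CPM (log2 fold change 2.03), and CD44, a hyaluronan receptor that can anchor MMP14 and MMP9, fell from 976.7 ± 18.1 to 277.2 ± 14.6 CPM (-1.82, SD, n = 3). CD44 is also one of the line markers.

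The ADAM and ADAMTS metalloproteinases, relatives of the MMPs of which only some can be inhibited by TIMP3, were mostly lower. Of 31 genes 16 were tested, 11 were called lower and 1 higher, with a median log2 fold change of -1.34. ADAM10, a major sheddase of cell surface proteins, fell from 213.1 ± 20.7 to 31.6 ± 3.78 CPM (log2 fold change -2.75), ADAM9 from 525.1 ± 27.0 to 171.3 ± 14.4 CPM (-1.62) and ADAM8 from 62.3 ± 5.04 to 25.3 ± 0.57 CPM (-1.30). ADAMTS12 fell from 34.9 ± 4.22 to 1.74 ± 0.20 CPM (log2 fold change -4.33, SD, n = 3). ADAM10 and ADAMTS12 span 161.2 and 368.7 kb, in the range above 153.1 kb where 79.2% of genes were called lower. ADAM12, ADAM19, ADAMTS3, ADAMTS6, ADAMTS16 and ADAMTS17, also called lower, lie in that range too. ADAM9 spans 108.3 kb, in a range (89.7 to 153.1 kb) where 46% of genes were called lower. The other genes called lower, ADAM8 and ADAMTS15, span 14.5 and 27.7 kb. The part of span in the direction of this list was not tested. ADAMTS7, at 1.06 ± 0.18 and 2.31 ± 0.31 CPM, had a log2 fold change of 1.12 and lost its call without DMSO replicate 1 (0.99) or NCD replicate 1 (0.97).

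Of 19 other genes of plasminogen activation 14 were tested, 4 were called higher and 4 lower (median -0.20). The plasminogen-binding surface proteins ENO1 and ANXA2 fell, ENO1 from 2784 ± 137 to 1258 ± 54.4 CPM (log2 fold change -1.15) and ANXA2 from 3189 ± 326 to 1287 ± 124 CPM (-1.31). ENO1 is better known as a glycolytic enzyme, and it lost its call with scaling by library totals (-0.95). IGF2R, which can bind PLAUR and plasminogen, fell from 171.0 ± 13.6 to 50.03 ± 3.64 CPM (log2 fold change -1.77, SD, n = 3). PLGRKT, which encodes a plasminogen receptor, fell from 18.1 ± 2.04 to 7.89 ± 1.23 CPM (log2 fold change -1.20). SERPINI1 (log2 fold change 1.42), SERPINF2 (2.13), which encodes the plasmin inhibitor alpha-2-antiplasmin, and F12 (1.36) rose from levels of 4.66, 0.97 and 0.99 CPM.

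Other extracellular and lysosomal proteases moved in both directions. Among 12 serine proteases and their Kunitz inhibitors, 7 were tested, 2 were called higher and 1 lower (median -0.15). DPP4, a surface peptidase, had a log2 fold change of 1.80 from 0.72 CPM, and HTRA1, a secreted serine protease, fell from 23.1 ± 2.06 to 9.29 ± 0.47 CPM (log2 fold change -1.31, SD, n = 3). SPINT1 was called at a log2 fold change of 1.04 and lost its call without NCD replicate 1 (0.74), without DMSO replicate 3 (0.97) and with limma-voom (0.99). Of 14 cathepsins with legumain, all were tested, 5 were called higher and 1 lower (median 0.65). CTSO rose from 5.92 ± 0.24 to 30.7 ± 2.04 CPM (log2 fold change 2.37), CTSV from 14.9 ± 1.51 to 58.2 ± 4.43 CPM (1.96), CTSH from 18.9 ± 1.24 to 47.2 ± 3.63 CPM (1.32) and CTSF from 7.70 ± 0.55 to 24.2 ± 2.65 CPM (1.65, SD, n = 3). CTSW fell (log2 fold change -1.34). CST1 fell too (log2 fold change -1.79), and its reads are uncertain because the cystatin genes CST1, CST2 and CST4 are nearly identical. With the cystatins, 22 genes of this list gave 19 tested, 5 called higher and 3 lower (median 0.39).

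AP-1, ETS and RUNX factors are known to act on MMP and urokinase promoters, and all 16 genes listed were tested, with 4 called higher and 6 lower (median -0.09). ATF3 rose from 6.34 ± 0.80 to 58.5 ± 5.62 CPM (log2 fold change 3.21), JUNB from 8.58 ± 0.28 to 33.4 ± 3.46 CPM (1.96), FOS from 1.59 ± 0.41 to 8.31 ± 0.57 CPM (2.39) and FOSB from 0.48 ± 0.23 to 3.17 ± 0.39 CPM (2.71). FOSL1, an AP-1 gene known for high expression in triple-negative lines, fell from 261.8 ± 7.46 to 118.0 ± 4.30 CPM (log2 fold change -1.15). ETS1 fell from 499.4 ± 24.1 to 238.8 ± 10.3 CPM (log2 fold change -1.06), and FOSL1 (-0.95) and ETS1 (-0.87) both lost their calls with scaling by library totals. ELK3 (log2 fold change -1.64) and RUNX2 (-1.46) fell as well (SD, n = 3). The early-response genes FOS, FOSB, JUNB and ATF3 were thus higher with NCD while FOSL1 was lower. JUN, another early-response gene, was also lower, from 170.5 ± 9.31 to 91.1 ± 2.80 CPM (log2 fold change -0.90, within the fold limit). JUND (log2 fold change 0.98) and FOSL2 (0.70) were higher within that limit. Over the 7 lists, 49 of 90 tested genes (54.4%) were called, 21 higher (23.3%) and 28 lower (31.1%). Of all tested genes 31.0% were called, 13.5% higher and 17.5% lower. The lists were chosen with earlier results of these data known, so these counts are no test of the lists. The part of span in them was not tested.

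**Figure D5:**
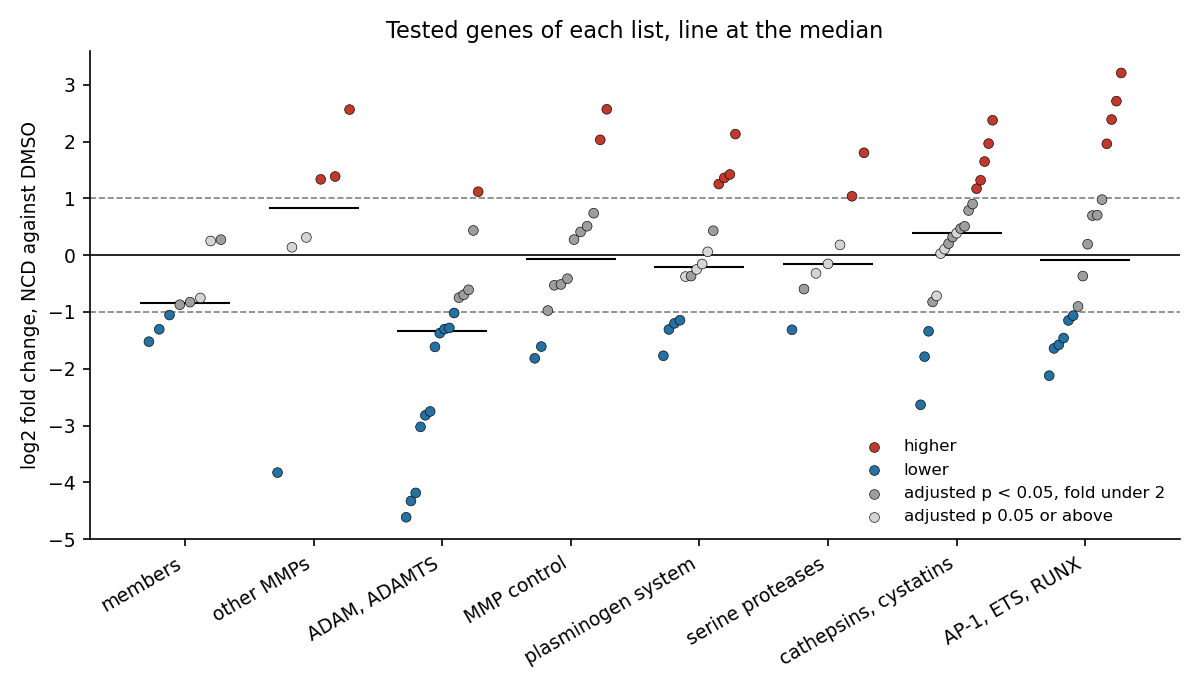
Log2 fold change with NCD of each tested gene, by list, with red for called higher, blue for called lower, grey for adjusted p below 0.05 within the fold limit and light grey for the rest. Lines mark list medians, which run from -1.34 for the ADAM and ADAMTS genes to 0.82 for the other MMPs, and the members have a median of -0.85.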

How the data were processed

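RNA-seq libraries of MDA-MB-231 cells (3 with NCD, 3 with DMSO) were analysed, grouped by the treatment label. The authors deposited expected counts, estimated per Ensembl gene with RSEM after alignment with HISAT2 to GRCh38, per the labels and the methods, without normalization. The annotation release and strandedness are not given in the sources used here. In each library 25 lines of stray annotation text with no gene were skipped. Symbols were found for 62666 of 63241 identifiers. Positions, spans and transcript lengths came from GENCODE 29, which holds 58228 of them, and its match to the annotation of the authors is not known.

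Expected counts were rounded, filtered with filterByExpr, scaled by TMM (factors 0.912 to 0.949 with DMSO and 1.06 to 1.09 with NCD) and compared with edgeR 4.0.16 (glmQLFit, glmQLFTest, Benjamini-Hochberg over 15295 genes) in R 4.3.3. The authors used DESeq2. CPM use TMM-scaled totals. CPM per kb divide by the length of the principal transcript. Standard errors are the absolute log2 fold change over the square root of F. Whether the 3 libraries of a group are separate cultures is not in the labels, so p-values measure only the spread between these samples, which may be technical. Chi-square per degree of freedom between libraries of a group was at least 2.09, so none were counted as 1 sample. That lowest value was between NCD replicates 1 and 2, which were closer to each other than to NCD replicate 3 (15.9 and 14.1). Within DMSO it ran from 4.42 to 16.9. Exact permutation tests (two-sided) of 3 against 3 cannot go below p = 0.1, which MMP2, MMP9, MMP14, TIMP2, TIMP3, PLAU and PLAUR reached. The script was tested on simulated data.

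Members and lists were chosen with earlier results of these data known. Named genes are the members, 7 partners (TIMP4, RECK, PLAT, PLG, SERPINE2, SERPINB2, LRP1) and, per list, up to 4 called genes per direction with a mean of at least 1 CPM and the smallest p. Exactly 1 further gene that this rule covers is not reported here and was left out of the lists. The GC box motif was added after the files were seen, and protein motifs were not searched. Alternatives were DESeq2 1.42.0, limma-voom (limma 3.58.1), library totals or DESeq2 size factors, no low-count filter or a minimum of 10 counts per library, no fold limit, the replicate number as a block, each library left out in turn, and the longest transcript as length. The limit for a count of 0 (3 counts per library) covers counting error only. Other tools were scipy 1.17.1, pandas 2.3.3, numpy 2.4.6 and matplotlib 3.10.9.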

Additional observations from a re-analysis of the deposited data

How the results depend on the processing

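Without the fold limit, 10602 genes passed (5393 higher, 5209 lower), with 6 of the members (1 higher, 5 lower) and 77 of the context genes (37 higher, 40 lower). With library totals the split over all genes was 2793 higher and 2181 lower, beside 2067 and 2669, and the median of all genes shifted by 0.20, while MMP14 (-0.86) lost its call and 2 members remained called. LRP1 turned to 0.041 with library totals and did not pass. PLAT ranged from -0.006 (without DMSO replicate 3) to 0.087 with 1 library left out, without passing, and passed at 0.255 with library totals (adjusted p = 0.0113). With the longest transcript as length, PLAUR to PLAU was 0.950 with DMSO and 0.585 with NCD, and member MMPs to member TIMPs was 0.533 and 0.342, both in the same order between groups. Leaving out 1 library gave 4653 to 5049 called genes, 3 members each time and 47 to 51 context genes. The cause of these shifts was not tested, apart from the limit or length that each setting changes.

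A replicate block by number left 4723 genes, 3 members and 49 context genes called. The labels tie the numbers to nothing shared, and the correlations of same-numbered deviations were 0.216, -0.185 and 0.023, so the pairing is by number only. The depth limits what can be said of MMP2, MMP9 and MMP13, which had at most 20 counts in any library.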

Other observations

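MMP1 and MMP13 belong to a cluster of MMP genes on chromosome 11 that runs from MMP7 (102520508) to MMP13 (ending at 102955734 on GRCh38). Apart from MMP1 and, at a lower level, MMP3, the cluster was close to unread in these cells. MMP3, stromelysin 1, was read 25, 23 and 24 times with DMSO and 38, 41 and 29 times with NCD, with a log2 fold change of 0.31 that did not pass edgeR's test (95% interval -0.26 to 0.88, adjusted p = 0.294). MMP10 had 2 to 7 counts with DMSO and 2 to 10 with NCD, and MMP8 at most 2 in any library. MMP7, MMP20, MMP27 and MMP12 had 0 counts in all 6 libraries, which allows up to 3 counts in each. MMP1 and MMP3 each had their lowest NCD value in NCD replicate 3, while MMP10, at few counts, had its highest there. These genes were singled out after their values were seen, and no explanation was tested.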
